A study of Mus musculus with 12 samples.

Results

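The genes examined here are 10 olfactory axon guidance genes. They are the secreted semaphorins Sema3a and Sema3f, the semaphorin receptors Nrp1, Nrp2, Plxna1 and Plxna3, the Slit ligand Slit1 with the receptors Robo1 and Robo2, and the netrin receptor Dcc. Members were chosen by name, and each was found as 1 probe set with a single gene symbol. They are 10 of the 19938 genes that have a probe set of their own among the 28944 experimental probe sets of the series. According to the gene annotation, Sema3a is on chromosome 5, Sema3f on chromosome 9, Nrp1 on chromosome 8, Nrp2 on chromosome 1, Plxna1 on chromosome 6, Plxna3 on chromosome X, Robo1 and Robo2 on chromosome 16, Slit1 on chromosome 19 and Dcc on chromosome 18.

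RNA from freshly dissected whole main olfactory epithelium (MOE) of mice aged 6 months was hybridised to 12 whole-transcript microarrays from Affymetrix (Mouse Gene 1.0 ST), 6 for H2be-KO animals and 6 for WT animals. H2be encodes a variant of histone H2B found in olfactory neurons, and in the H2be-KO line its coding sequence was replaced by homologous recombination with Gap43-mCherry, a red fluorescent protein sent to the membrane by the start of GAP43. The founders were crossed to C57Bl/6, and WT animals kept the intact gene. RNA of a pair of animals was pooled for each array, and males and females were balanced over the arrays of each genotype. Nothing in the labels says whether arrays of the 2 genotypes share a litter or a day. Since a whole tissue was measured, fewer cells of a type and less RNA per cell cannot be told apart.

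An olfactory neuron sends its axon to a glomerulus of the olfactory bulb that is set by the odorant receptor it expresses. Along the anterior-posterior axis of the bulb, axons sort by their amounts of Nrp1 and of its repellent ligand Sema3A, which cAMP signalling downstream of the receptor adjusts in opposite directions. Along the dorsal-ventral axis, early dorsal axons that carry Robo2 release Sema3F, which repels the later, ventral axons that carry Nrp2.

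The comparison of H2be-KO with WT asked whether transcripts of this system differ when the histone variant is missing. Over the 28151 probe sets whose mean log2 signal exceeded 5, a linear model fitted with limma called none at an adjusted p under 0.05, the smallest adjusted p being 0.572. At an unadjusted p under 0.05 it called 1563 (5.55%), of which 1065 (3.78%) were higher and 498 (1.77%) lower in H2be-KO, and an exact permutation test called 1693 (6.01%), 3.98% higher and 2.03% lower. The excess of higher over lower calls depended on the scaling of the arrays, with 825 higher and 900 lower after quantile normalisation and 815 higher and 699 lower after median centring, so that the higher calls made up 47.8% and 53.8% of the calls, against 68.1% in the values as deposited. The median signal of an array lay between 7.84 and 7.90, and pairs of arrays correlated at 0.953 to 0.985. H2be itself, listed as H2bc21, measured 11.65 ± 0.12 in H2be-KO against 11.89 ± 0.17 in WT (SD, n = 6 each), with overlapping groups (exact permutation p = 0.0195, limma adjusted p = 0.753). This signal is no check of the labels, because the sources used here do not say where its probes lie relative to the replaced coding sequence. Markers of mature olfactory neurons were bright in both genotypes, with Omp, the olfactory marker protein, at 12.90 ± 0.07 in H2be-KO and 12.90 ± 0.07 in WT, and Cnga2, a subunit of the olfactory transduction channel, at 12.20 ± 0.10 in H2be-KO and 12.11 ± 0.11 in WT.

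Some arrays stood apart in ways the genotype does not account for. Xist, the RNA of the inactive X chromosome, was between 11.39 and 11.67 in replicates 1 to 3 of both genotypes. The mean of Y-linked genes was at most 2.28 there. In replicates 4 to 6 Xist was between 0 and 3.89, and the mean of Y-linked genes was at least 9.35. By these signals replicates 1 to 3 were female and replicates 4 to 6 male, although the labels give no sex for an array. Sets of arrays split by Xist are therefore sets split by sex. Amelx, an enamel gene, was at 11.87 and 11.66 in H2be-KO replicates 1 and 6, against 5.11 to 6.03 in the other arrays. WT replicate 4 was highest of all 12 arrays for Sema3f, Robo1 and Dcc and lowest for Nrp1 and Sema3a, 5 of the 10 guidance genes. It was also at either end for 5 of 11 lists of cell type markers. H2be-KO replicates 4 and 5 were at either end for 4 guidance genes each. Among the marker lists, H2be-KO replicate 2 was highest for 1 and lowest for 4, and H2be-KO replicate 4 was highest for 2 and lowest for 3.

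Of the 10 guidance genes, limma called 1 lower (p under 0.05 before adjustment) and none higher, and 9 were not called, against 5.55% called among all probe sets. None had groups of arrays that did not overlap, against 0.178% of all probe sets. The differences were split as 5 positive and 5 negative, with a median of -0.02 on the log2 scale, against 0.02 and 56.2% positive over all probe sets. The gene called lower was Sema3f. In the other 9 the largest difference was 0.14, and their 95% intervals reached at most a fold of 1.34 upward and 0.782 downward.

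**Figure D1:**
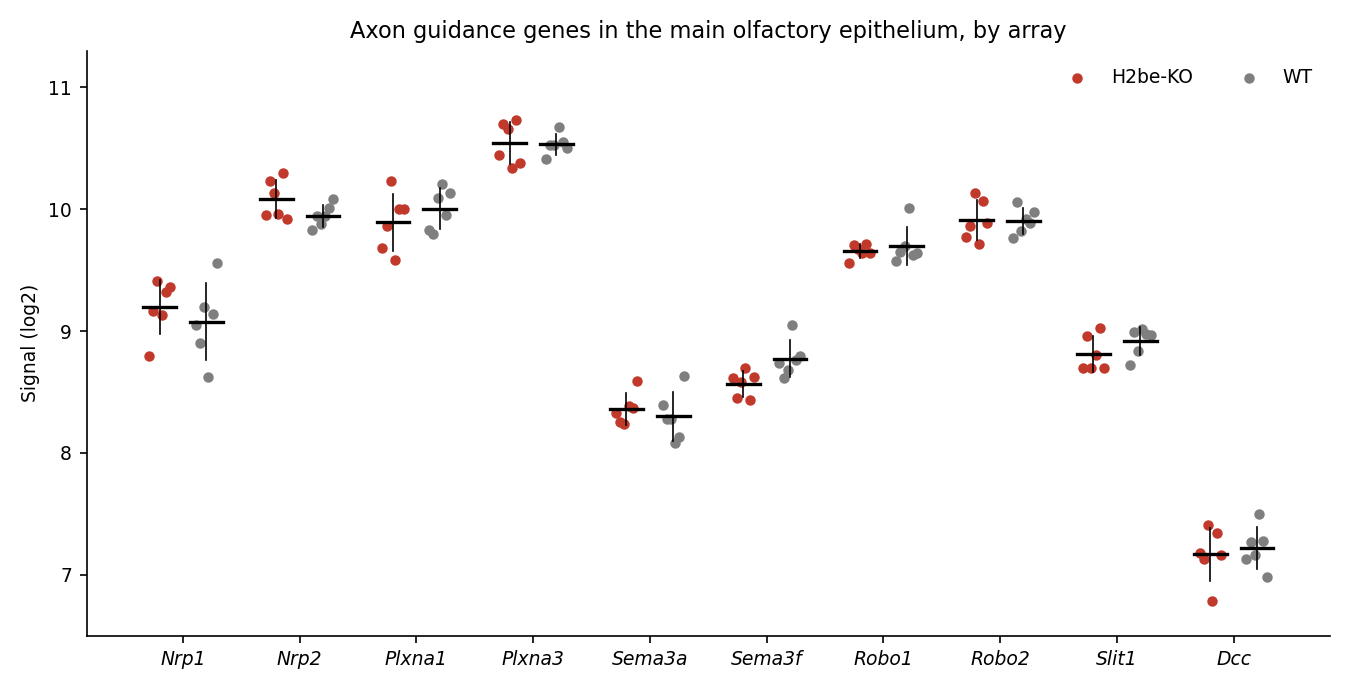
Log2 signal of the 10 guidance genes (vertical axis) in each of the 6 H2be-KO arrays (red) and 6 WT arrays (grey); horizontal bars are means and vertical lines SDs. The genotypes overlap for every gene, with the lowest Sema3f values all in H2be-KO; heights of different genes come from different probes and are not comparable.

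Sema3f, the secreted ligand that repels Nrp2 axons, had a signal of 8.43 in the lowest, 8.60 in the median and 8.70 in the highest H2be-KO array, against 8.62, 8.75 and 9.05 in WT arrays. 3 of the 6 H2be-KO arrays (replicates 2, 3 and 5) lay below every WT array, and the other 3 fell within the lower part of the WT range. The means were 8.57 ± 0.10 in H2be-KO and 8.77 ± 0.15 in WT (SD, n = 6 each), a log2 difference of -0.21 (SE 0.09, 95% interval -0.39 to -0.02), which is a fold of 0.867. The limma p was 0.0313 before and 0.753 after adjustment over all probe sets, and the two-sided exact permutation p was 0.0152. By limma p, Sema3f stood at place 862 of the 28151 probe sets.

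The Sema3f call depended on the test when single arrays were left out. The limma p was above 0.05 without WT replicate 4, the highest array for Sema3f (difference -0.15, limma p = 0.0615, exact permutation p = 0.0281), without H2be-KO replicate 5 (-0.18, limma p = 0.0712, exact permutation p = 0.0303) and without H2be-KO replicate 2 (-0.18, limma p = 0.0695, exact permutation p = 0.0303). By the exact test, p stayed under 0.05 with each of the 12 arrays left out in turn. Among the 6 arrays with high Xist, Sema3f was 8.45 to 8.62 in H2be-KO against 8.62 to 8.74 in WT, overlapping by 1 array of each genotype, with a difference of -0.13 (exact permutation p = 0.20). Among the 6 arrays with low Xist it was 8.43 to 8.70 in H2be-KO against 8.76 to 9.05 in WT, a difference of -0.28 with no overlap (exact permutation p = 0.10, the smallest that 3 arrays against 3 allow), which 3.21% of all probe sets also showed in that direction in those arrays. Whether the 2 differences differ was not tested.

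Sema3a, the other secreted semaphorin, which is the repellent ligand of Nrp1, had signals of 8.23, 8.35 and 8.59 (lowest, median and highest) in H2be-KO arrays against 8.08, 8.28 and 8.63 in WT arrays. The WT range enclosed that of H2be-KO, and WT replicates 4 and 6 held the lowest and the highest value of all. The difference was 0.06 (95% interval -0.15 to 0.28, exact permutation p = 0.537), which allows a fold between 0.900 and 1.21, and it was 0.02 without WT replicate 4 and 0.13 without WT replicate 6.

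The ligand-binding neuropilins were both on average higher in H2be-KO, neither past the test. Nrp1, which binds Sema3A, measured 8.80, 9.24 and 9.41 in H2be-KO arrays (lowest, median, highest) against 8.62, 9.09 and 9.56 in WT arrays, so that the H2be-KO range again lay inside the WT range. Its difference was 0.12 (SE 0.14, 95% interval -0.19 to 0.42, exact permutation p = 0.470), and it was 0.028 without WT replicate 4, the lowest array, and 0.22 without WT replicate 6, the highest. Nrp2, which binds Sema3F, was 9.92, 10.05 and 10.30 in H2be-KO arrays against 9.83, 9.94 and 10.08 in WT arrays. Its 3 highest arrays, replicates 2, 3 and 5 of H2be-KO, were the 3 in which Sema3f lay below every WT array. With values centred on the mean of each genotype, Nrp2 and Sema3f had a Pearson r of -0.38 (permutation p = 0.199). That r was -0.22 without the 2 arrays farthest from the Nrp2 median. The Nrp2 difference was 0.14 (SE 0.09, 95% interval -0.05 to 0.32, exact permutation p = 0.106), a fold of 1.10 whose interval ran from 0.966 to 1.25. In the 3 arrays of high Xist in each genotype, Nrp2 did not overlap, at 9.96 to 10.23 in H2be-KO against 9.83 to 9.94 in WT, as 7.23% of all probe sets were higher without overlap in H2be-KO in those arrays. In the arrays of low Xist Nrp2 overlapped, at 9.92 to 10.30 in H2be-KO against 9.94 to 10.08 in WT, and the difference was 0.05 there, against 0.22 in those of high Xist. Whether these differ was not tested.

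Plexins are the partners through which neuropilins signal. Plxna1, a partner of Nrp1, was 9.58, 9.93 and 10.23 in H2be-KO arrays against 9.80, 10.02 and 10.20 in WT arrays, a difference of -0.11 (95% interval -0.36 to 0.13, exact permutation p = 0.361) that shrank to -0.0053 with array weights, which count noisier arrays for less. H2be-KO held both the highest Plxna1 array (replicate 3) and the 2 lowest (replicates 1 and 4). Plxna3, a partner of Nrp2, was 10.34, 10.55 and 10.73 in H2be-KO arrays against 10.41, 10.53 and 10.67 in WT arrays. Its difference was 0.0087 (95% interval -0.18 to 0.20, exact permutation p = 0.920), and the SD over arrays was 0.17 in H2be-KO against 0.09 in WT, with 2 H2be-KO arrays above and 2 below every WT array. The sign of the Plxna3 difference turned to -0.031 after quantile normalisation and to -0.0053 after median centring.

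**Figure D2:**
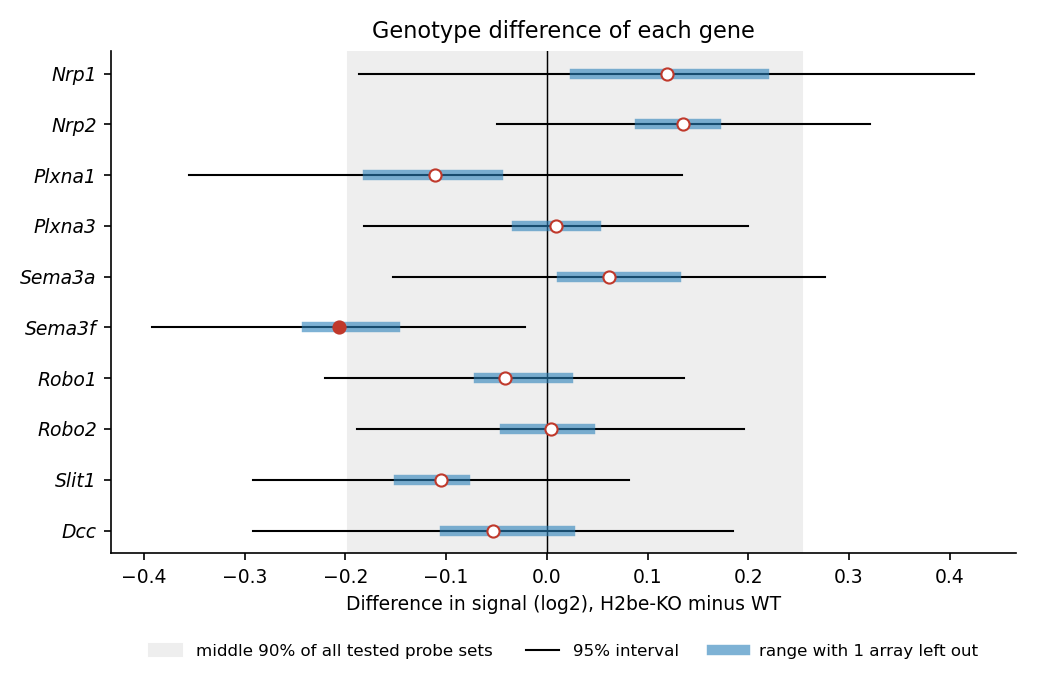
Difference in log2 signal, H2be-KO minus WT (horizontal axis), for each guidance gene, with the limma 95% interval (line), the range of the difference when 1 array at a time was left out (blue band) and the middle 90% of all tested probe sets (grey). A filled point marks a limma p under 0.05; only the interval of Sema3f (-0.39 to -0.02) lies to 1 side of 0.

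Among the Slit and Robo genes, the ligand Slit1 had signals of 8.69, 8.75 and 9.02 in H2be-KO arrays against 8.72, 8.97 and 9.02 in WT arrays. 3 H2be-KO arrays (replicates 1, 3 and 6) were below every WT array, yet replicate 5 was the highest of all 12. The difference was -0.10 (SE 0.09, 95% interval -0.29 to 0.08, exact permutation p = 0.165). Robo2, a Slit receptor of dorsal olfactory axons, was 9.71, 9.88 and 10.14 in H2be-KO arrays against 9.76, 9.90 and 10.06 in WT arrays, a difference of 0.0038 (95% interval -0.19 to 0.20, exact permutation p = 0.961) that became -0.036 after quantile normalisation and -0.010 after median centring.

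Robo1, the second Slit receptor, spanned 9.56 to 9.72 in H2be-KO with a median of 9.66, against 9.57 to 10.01 in WT with a median of 9.64. WT replicate 4 at 10.01 stood alone, and the other 5 WT arrays were at 9.57 to 9.70. The Robo1 difference of -0.04 (95% interval -0.22 to 0.14, exact permutation p = 0.747) became 0.02 without that array. Dcc, a receptor through which netrin attracts axons, was 6.78, 7.17 and 7.40 in H2be-KO arrays against 6.98, 7.21 and 7.50 in WT arrays. The lowest Dcc value was in H2be-KO replicate 4 and the highest in WT replicate 4, and the difference of -0.05 (95% interval -0.29 to 0.18, exact permutation p = 0.656) changed sign without either of them, to 0.02 and 0.0023.

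The genes differed in how tightly they were held over arrays of 1 genotype. Nrp1 had a residual SD of 0.27, above that of 94.5% of the 2000 probe sets nearest to it in mean signal, and Plxna1 had 0.20, above 87.1%. Sema3f had a residual SD of 0.13, above only 15.4% of its neighbours in signal, and Slit1 stood at 19.6%, Robo1 at 27.0%, Dcc at 29.1% and Sema3a at 35.6%. Nrp2, Robo2 and Plxna3 lay near the middle, at 43.4%, 49.3% and 55.4%. The SD was larger in H2be-KO for 6 genes and in WT for 4.

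How the genes varied together was described with values centred on the mean of each genotype, over all 12 arrays. 155 relations were computed, 45 between pairs of the genes and 110 between a gene and the mean signal of a cell type marker list. With permutation tests and Benjamini-Hochberg adjustment, none passed an adjusted p under 0.05, by Pearson or Spearman, while 21 had an unadjusted Pearson p under 0.05. Nrp2 and Plxna3, which form a receptor for Sema3F, had a Pearson r of 0.81 (permutation p = 0.0178, adjusted p = 0.307) and a Spearman rho of 0.83 (permutation p = 0.0162, adjusted p = 0.305). Without the 2 arrays farthest from the median r was 0.70, and it was 0.95 within the arrays of high Xist and 0.75 within those of low Xist. Nrp2 and Slit1 had r = 0.79 (permutation p = 0.0071, adjusted p = 0.183) and rho = 0.72 (p = 0.0238, adjusted p = 0.305), with r = 0.68 without 2 arrays and 0.80 and 0.87 within the sets of high and low Xist.

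Nrp1 and Plxna1, the pair that receives Sema3A, had r = 0.41 (permutation p = 0.18, rho = 0.54, permutation p = 0.0855). Nrp1 and its ligand Sema3a had r = 0.60 (permutation p = 0.0657, rho = 0.42, permutation p = 0.207), and the relation rested on the 2 arrays farthest from the Nrp1 median, without which r was 0.07. Nrp2 and its ligand Sema3f had r = -0.38 (permutation p = 0.199, rho = -0.48). Plxna3 and Robo1 had the smallest p among the pairs, with r = 0.59 (permutation p = 0.00378, adjusted p = 0.146) and rho = 0.66 (permutation p = 0.0106, adjusted p = 0.275).

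**Figure D3:**
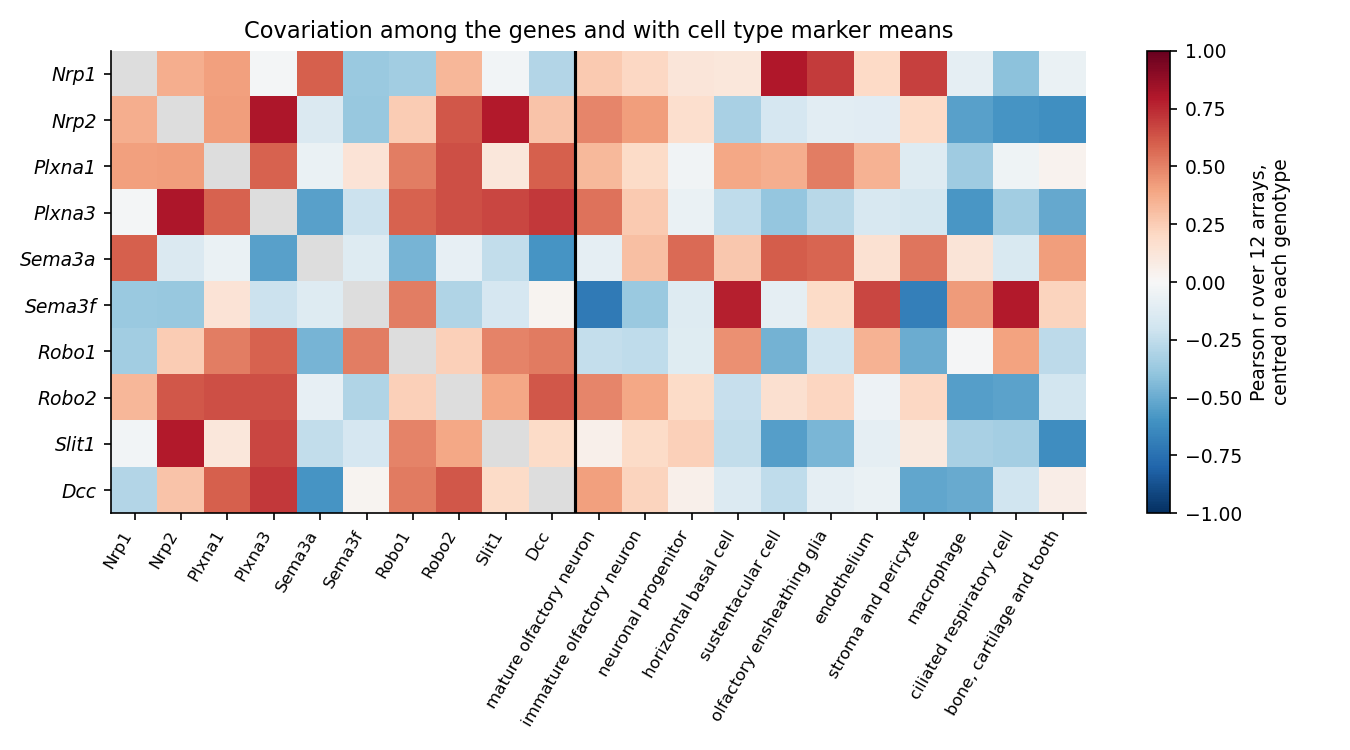
Pearson r (colour scale from -1 to 1) over the 12 arrays, centred on each genotype, between the 10 guidance genes (left block) and between each gene (rows) and the mean signal of 11 cell type marker lists (right block). Nrp2 with Plxna3 (0.81), Nrp1 with sustentacular markers (0.80) and Sema3f with ciliated respiratory markers (0.79) are among the strongest red cells, and Sema3f with mature neuron markers (-0.71) is among the strongest blue.

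Sema3f varied over the arrays with several cell type marker lists, none past adjustment. Its r was -0.71 with the mean of 10 mature olfactory neuron markers (permutation p = 0.00279, adjusted p = 0.146, rho = -0.80, permutation p = 0.00298), 0.79 with 5 ciliated respiratory cell markers (permutation p = 0.00324, adjusted p = 0.146, rho = 0.80, permutation p = 0.00372) and 0.78 with 6 horizontal basal cell markers (permutation p = 0.00684, adjusted p = 0.183, rho = 0.78, permutation p = 0.00656). Without the 2 arrays farthest from the Sema3f median these were -0.73, 0.66 and 0.58, and all kept their sign within the arrays of high Xist (-0.70, 0.59 and 0.64) and of low Xist (-0.87, 0.98 and 0.85). With 9 endothelial markers r was 0.67 (permutation p = 0.0254, adjusted p = 0.362, rho = 0.61, permutation p = 0.0466), and it was 0.49 without those 2 arrays. With 8 stromal and pericyte markers r was -0.68 (permutation p = 0.0444, adjusted p = 0.362, rho = -0.41, permutation p = 0.209). It was -0.15 without those 2 arrays, but -0.89 within the arrays of high Xist and -0.60 within those of low Xist.

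Beside the lower Sema3f of H2be-KO, the ciliated respiratory marker mean was 9.48 to 9.83 in H2be-KO against 9.63 to 9.94 in WT (difference -0.10, exact permutation p = 0.188), and the horizontal basal marker mean was 8.003 to 8.635 in H2be-KO against 8.004 to 8.995 in WT (difference -0.21, exact permutation p = 0.264). Mature neuron markers averaged 11.62 to 11.84 in H2be-KO against 11.66 to 11.75 in WT (difference 0.04, exact permutation p = 0.325). Single markers of these lists were called in 0 of 5 ciliated, 1 of 6 basal (lower in H2be-KO) and 0 of 13 mature neuron probe sets. Foxj1, which drives the formation of motile cilia, was called lower in 4 of 12 other settings. In the other lists, 2 of 10 immature neuron and 2 of 6 neuronal progenitor probe sets were called. So were 1 of 5 ensheathing glia and 2 of 8 stromal and pericyte probe sets. All of these were higher in H2be-KO, and none was called in the remaining 4 lists. Gap43 was among the called immature neuron probe sets, and its call was lost after quantile normalisation. The H2be-KO allele carries the start of the GAP43 coding sequence, and whether the Gap43 probe set reads it was not tested. Over all probe sets 3.78% were called higher and 1.77% lower, a balance that depended on the scaling of the arrays. None of the defining markers was near background, with Foxj1 at a mean of 9.36 over all arrays, Krt5 of basal cells at 10.42 and Omp of mature neurons at 12.90. Of the 11 lists, the mean of 8 stromal and pericyte markers differed with the smallest p. It was 10.59 ± 0.06 in H2be-KO and 10.47 ± 0.11 in WT (difference 0.13, exact permutation p = 0.0260 before adjustment). With this list Sema3f had the r of -0.68, which was -0.15 without the 2 arrays farthest from the Sema3f median. Within the arrays of high and of low Xist it was -0.89 and -0.60. The part of cellular composition in the Sema3f difference was not tested.

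**Figure D4:**
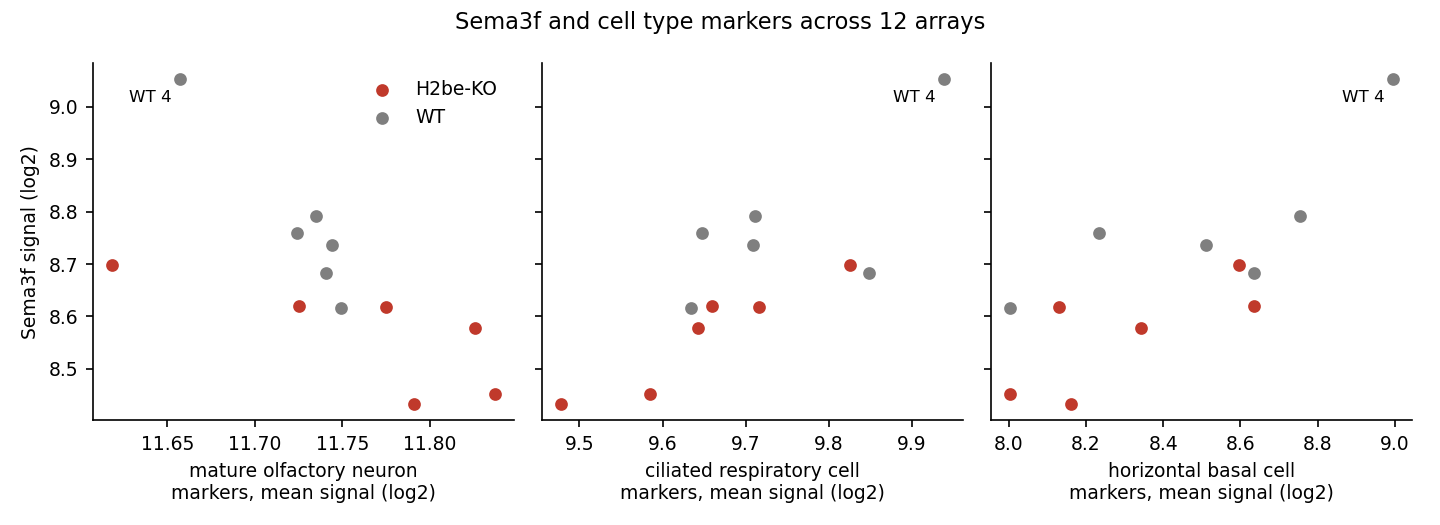
Sema3f log2 signal (vertical axis) against the mean log2 signal of mature olfactory neuron, ciliated respiratory cell and horizontal basal cell markers (horizontal axes) in 6 H2be-KO arrays (red) and 6 WT arrays (grey). WT replicate 4 has the highest Sema3f (9.05) and the highest ciliated (9.94) and basal (8.995) means.

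Nrp1 had its highest r, 0.80, with the mean of 5 of 6 listed markers of sustentacular cells, the supporting cells of the epithelium (permutation p = 0.00341, adjusted p = 0.146, rho = 0.90, permutation p = 0.00074), and 0.70 with 5 of 7 listed markers of olfactory ensheathing glia, the cells that wrap olfactory axons (permutation p = 0.0144, adjusted p = 0.278, rho = 0.84, permutation p = 0.00236). Without the 2 arrays farthest from the Nrp1 median these were 0.66 and 0.64. With stromal and pericyte markers the r of Nrp1 was 0.68 (permutation p = 0.032, adjusted p = 0.362), and 0.35 without those 2 arrays. With mature olfactory neuron markers it was 0.26 (permutation p = 0.368, rho = 0.20). Sema3a had r = 0.60 with sustentacular and 0.58 with ensheathing glia markers (permutation p = 0.0485 and 0.0495, adjusted p = 0.362 each). Those were 0.24 and 0.14 without the 2 arrays farthest from the Sema3a median. Sustentacular markers averaged 11.85 to 12.06 in H2be-KO against 11.74 to 11.98 in WT (difference 0.08, exact permutation p = 0.123).

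By likeness of their pattern over the 12 arrays, centred on genotype, each gene was set against 20029 named probe sets, as a description without a test. The probe sets nearest to Sema3f were Tiam1 (r = 0.96), an activator of the GTPase Rac, then Trak1 (0.94), an adaptor of mitochondrial transport, and Ttyh1 (0.93). Those nearest to Plxna3 were C4a (0.96), Mycbp2 (0.94) and Umodl1 (0.93). Nrp2 was most like Rmi2 (0.94) and Robo2 most like Nufip2 (0.94), while the probe sets nearest to Plxna1 were Pard3 (0.97), a cell polarity gene, and Ywhab (0.96). Of the 10, Nrp1 shared its pattern with the most, 1312 of the named probe sets having an r over 0.8 with it, against 407 for Plxna1, 235 for Robo1, 171 for Sema3f, 109 for Sema3a and 23 to 99 for the other genes.

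The wider guidance system was examined through 6 lists of 80 further genes, of which 77 were tested, by 83 probe sets (the 2 of Sema6b held equal values). 0 were higher, 2 were lower (Sema3b and Sema5b) and 81 were not called in H2be-KO, against 5.55% called among all probe sets. The median difference was -0.03, and 32 of the 83 were positive, against 0.02 and 56.2% over all. The list medians were -0.07 for other class 3 semaphorins and co-receptors, -0.05 for semaphorins of classes 4 to 7 and other plexins, -0.08 for other Slit and Robo genes, -0.03 for netrins and their other receptors, -0.03 for growth cone effectors and 0.07 for the genes that link odorant receptors to cAMP. The exact permutation test also called 2 lower and 0 higher, Sema3b again and Sema4b in place of Sema5b.

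Sema3b, another secreted semaphorin, was 8.30, 8.44 and 8.49 in H2be-KO arrays (lowest, median, highest) against 8.38, 8.63 and 8.84 in WT arrays, which overlapped. Its difference was -0.20 (SE 0.09, fold 0.872, limma p = 0.0395, adjusted p = 0.753, exact permutation p = 0.0303). Sema5b, a transmembrane semaphorin, was 6.49, 6.72 and 7.06 in H2be-KO arrays against 6.82, 6.97 and 7.47 in WT arrays, a difference of -0.32 (SE 0.13, fold 0.803, limma p = 0.0280, adjusted p = 0.753, exact permutation p = 0.0519). Sema4b differed by -0.14 (exact permutation p = 0.0303) and was named after its values were seen. The call of Sema3b held in 4 of the 12 fits that left out 1 array and that of Sema5b in 7.

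Sema3b and Sema3f are near neighbours on chromosome 9, with 3 annotated genes starting between them, which was looked up after both were found lower. Of these, Gnai2 differed by -0.11, Gnat1 by -0.06 and Slc38a3 by 0.23, none of them called. Over the arrays, centred on genotype, Sema3f and Sema3b had an r of 0.28.

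**Figure D5:**
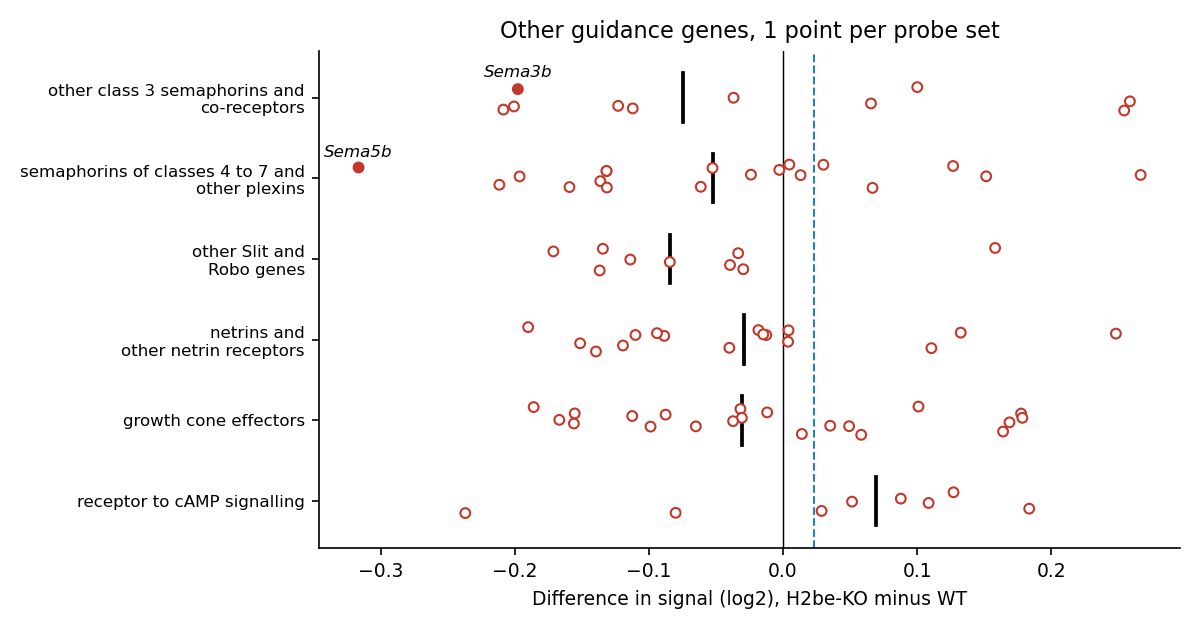
Difference in log2 signal, H2be-KO minus WT (horizontal axis), of the 83 probe sets in 6 lists of other guidance genes (rows), 1 point per probe set; filled points had a limma p under 0.05, black bars are list medians and the dashed line is the median of all tested probe sets (0.02). Sema3b (-0.20) and Sema5b (-0.32) are the filled points, and only the list of receptor to cAMP signalling has its median above the dashed line.

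In the rest of these lists the genes of smallest limma p did not pass the threshold with the settings used here, but some did under others. Prkar1b was called in 5 of 12 other settings, Sema3c in 4 of 12, Sema4d in 3 of 12 and Ntn3 in 3 of 11. Weighting of the arrays alone called 10 of the 16 uncalled genes named from these lists. Those genes had been picked by their small p in these same data. Of all 28151 probe sets, array weights called 2694 higher and 1405 lower, against 1065 and 498 without weights. 2 further class 3 ligands were on average higher, Sema3c by 0.25 (exact permutation p = 0.0823) and Sema3d by 0.26 (exact permutation p = 0.119), in contrast in sign to Sema3b and Sema3f. Sema6c was -0.21 (exact permutation p = 0.0974) and Sema4d -0.20 (exact permutation p = 0.110). Among Slit and Robo genes, Robo4, a receptor of endothelium, was -0.17, the ligand Slit2 0.16 and the Robo effector Srgap1 -0.14, with exact permutation p of 0.173 to 0.223. Of the netrin genes, Ntn3 was 0.25 (exact permutation p = 0.0736), and the repulsive netrin receptors Unc5c and Unc5d were -0.15 and -0.14 (exact permutation p = 0.167 each).

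Among growth cone effectors, the kinase Fyn was 0.18 (exact permutation p = 0.0606), Farp2, which acts downstream of Plxna1, 0.16 and the Cdk5 activator Cdk5r1 -0.16. In the route from odorant receptor to cAMP, the protein kinase A regulatory subunit Prkar1b was -0.24 (exact permutation p = 0.0801) and Prkar2a 0.18 (exact permutation p = 0.197), and Creb1, a transcription factor that protein kinase A activates, was 0.13 (exact permutation p = 0.271). Adcy3, the adenylyl cyclase of olfactory neurons, differed by -0.08 (exact permutation p = 0.104) and Gnal, its G protein, by 0.05 (exact permutation p = 0.706), both named after their values were seen.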

How the data were processed

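According to the study's methods, the authors used Affymetrix Expression Console to summarise probes (IterPLIER) and to normalise arrays (sketch-quantile), and they deposited log2 signals for 35556 probe sets in 12 arrays. A change shared by most transcripts is removed by this normalisation. Arrays hold no counts, and their number limits the precision. All columns belonged to a labelled sample, and 6612 control probe sets were left out. Probe sets were named by the platform annotation, some listed markers are not reported here, and chromosomes came from RefSeq (GRCm38.p6). Ntng2, Gnas, Prkaca and Ugt2a1 had only probe sets shared with other genes and were not tested.

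Genotypes were compared with lmFit and eBayes of limma 3.58.1 in R 4.3.3, two-sided, with genotype as the only term and Benjamini-Hochberg adjustment over the 28151 probe sets averaging over log2 5. A probe set was called at an unadjusted p under 0.05. Exact permutation tests ran over all 924 choices of 6 of 12 arrays (smallest p 0.002165), and relations used 100000 permutations of arrays within genotype, in Python 3.11.15 with NumPy 2.4.6 and SciPy 1.17.1. The scripts were tested on simulated data. The p-values of differences set them only against the spread between these arrays and treat the arrays as independent. Nothing says that arrays came from separate litters.

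The 10 genes and all gene and marker lists were chosen with earlier results of these data known. Named genes are the 10 members, up to 3 of each pathway list by limma p, the first marker of each cell type, H2bc21, Cnga2 and Amelx, the 3 probe sets most like each member, and any named after its values were seen. Alternatives changed the filter, a floor, the normalisation, moderation, array weights, the test, averaging by symbol, a replicate block, a Y-linked covariate and the arrays left out. Sets of arrays split by Xist were added after seeing the data.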

Additional observations from a re-analysis of the deposited data

Results flagged for a closer look

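Of 102 groups of 6 values examined (named genes and marker means in each genotype), 8 held 1 array far from the other 5, where chance gives about 1 in 20. 5 of the 8 were in WT replicate 4. It was high in Robo1 (10.01), in the ciliated cell gene Foxj1 (9.68) and in the endothelial gene Pecam1 (7.85), and low in Gap43 (9.67), which growing axons express, and in the mature olfactory neuron marker mean (11.66). The other 3 were Robo4 in WT replicate 6 (7.23), the stromal and pericyte marker mean in H2be-KO replicate 1 (10.48) and the macrophage marker mean in H2be-KO replicate 4 (8.16). Gap43 averaged 10.24 ± 0.20 in H2be-KO and 9.99 ± 0.17 in WT (limma p = 0.0336, adjusted p = 0.753, exact permutation p = 0.0455). It was not called after quantile normalisation, without H2be-KO replicates 1 and 6, or in 4 of the 12 fits that left out 1 array. The H2be-KO allele itself carries the start of the GAP43 coding sequence, and whether the probe set reads it was not tested.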

How the results depend on the processing

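Sema3f kept its direction and an unadjusted p under 0.05 in all 12 other settings (differences -0.24 to -0.18). These settings kept every array or left out H2be-KO replicates 1 and 6 together. The p was from limma in all but the setting of the exact permutation test. With 1 probe set and signals of 8.43 to 9.05, Sema3f kept the same values under the filters, the floor and averaging by symbol. Changes of moderation, the exact test and the replicate block also left its difference as it was, so these settings could not test it. Leaving out each array in turn gave -0.24 to -0.15, called in 9 of 12 fits, so that the members called lower ranged from 0 to 1. Within the arrays of high and of low Xist 0 members were called. No other member was called in any setting.

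Directions turned for Plxna3 with quantile normalisation (-0.031), median centring (-0.0053), in arrays of low Xist (-0.094) and with 1 array left out (-0.029 to 0.049), for Robo2 with quantile normalisation (-0.036), median centring (-0.010), in arrays of low Xist (-0.035) and with 1 array left out (-0.042 to 0.043), and for Robo1 with array weights (0.016), in arrays of high Xist (0.0074) and with 1 array left out (-0.068 to 0.021). They also turned in arrays of high Xist for Plxna1 (0.014), Sema3a (-0.045), Dcc (0.049, and -0.10 to 0.023 with 1 array left out) and Col1a1 (-0.057). Omp turned with median centring (-0.011), array weights (-0.013), without H2be-KO replicates 1 and 6 (-0.0045), in arrays of low Xist (-0.024) and with 1 array left out (-0.020 to 0.019). Pecam1 turned with array weights (0.017), without H2be-KO replicates 1 and 6 (0.028), in arrays of high Xist (0.012) and with 1 array left out (-0.068 to 0.078), and Amelx without H2be-KO replicates 1 and 6 (-0.095). The cause was not tested.

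Probe sets called higher in H2be-KO numbered 2039 with the replicate block, 2694 with array weights, 624 after averaging by symbol, which tests fewer features, 696 and 317 in the 6 arrays of high and of low Xist, and 513 to 2265 with 1 array left out, against 1065. Those called lower numbered 900 after quantile normalisation, 951 with the replicate block, 1405 with array weights, 273 in arrays of low Xist and 312 to 1554 with 1 array left out, against 498. The lowest count of higher calls came without H2be-KO replicate 5 and the highest without WT replicate 6. Every setting gave 0 at an adjusted p under 0.05. Quantile normalisation moved the median difference of all probe sets to -0.00040, against 0.023.

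Same-numbered arrays of the 2 genotypes correlated at 0.025 to 0.59 in their deviations from the genotype means, over 0.1 in 4 of 6 numbers, and the labels do not say what a number marks. The numbers were therefore not taken as pairs, although 4 of 6 H2be-KO arrays correlated best with their own number, a hint of pairing from the data, and Xist divided the numbers alike in both genotypes. With the replicate block Sema3b was no longer called, Sema3c, Sema4d, Ntn3 and Foxj1 were, and no call of a member changed. The number of relations with an adjusted p under 0.05 was 0 to 1 with 1 array left out (1 without WT replicate 3, likewise without H2be-KO replicate 5) and 0 otherwise.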
